A study of Homo sapiens with 12 samples.

Results

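The comparison is the difference of the 15d-PGJ2 responses between a pair of HEK293 lines, taken as the effect in GR3KR cells minus the effect in wtGR cells. It uses all 12 arrays of the series, 3 in each of 4 groups. HEK293 is a human embryonic kidney line, and the labels call both lines isogenic. The wtGR line stably carries the wild-type glucocorticoid receptor, the GR3KR line a form described as defective in SUMOylation. The labels do not say whether either line is a single clone. Every sample, controls included, was kept in steroid-depleted medium and then received 100 nM dexamethasone, a synthetic agonist of the receptor, for 6 h. In each line, 3 samples received dexamethasone alone and 3 received it together with 5 µM 15d-PGJ2. The former are called control arrays here and the latter treated arrays. There is 1 line for each receptor form, so the receptor cannot be told apart from other differences between the lines, and no sample went without dexamethasone. Nothing in the labels says that the triplicates are separate cultures, and the p-values rest on the spread among arrays of a group, which may be technical.

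The glucocorticoid receptor waits in the cytosol in a complex with HSP90 and its co-chaperones, binds hormone, and acts in the nucleus as a transcription factor. SUMO is a small protein that enzymes attach to lysines of other proteins, and SUMO on the receptor is known to restrain transcription at part of its targets. 15d-PGJ2 is an electrophilic prostaglandin that reacts with protein thiols. Electrophiles of this kind are known to switch on HSF1, the master activator of heat shock genes, and NRF2, the activator of antioxidant genes. The title of the series concerns this lipid, glucocorticoid signalling and SUMOylation of the receptor, and the difference of responses asks which genes answered the lipid differently in cells with the SUMOylation-defective receptor.

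The treated GR3KR arrays stood apart in quality. Arrays 1, 2 and 3 of that group detected 15223, 14207 and 17032 of 47312 probes at a detection p-value under 0.01, against 17959 to 19950 on the other 9. An index of how far the probes of each gene depart together from their mean was -0.61, -0.55 and -0.14 on these 3 arrays and -0.13 on wtGR control array 3, against 0.08 to 0.25 on the remaining 8. Replicates of the treated GR3KR group correlated at 0.880 to 0.968 across genes, and those of the other groups at 0.935 to 0.995. Array quality and the treated GR3KR group cannot be told apart: with the index as a covariate over the 12 arrays limma called 0 genes, 690 having an unadjusted p under 0.05. Each result is therefore also given without treated GR3KR arrays 1 and 2, where array 3 alone stands for the treated GR3KR group and is assumed to vary like the other groups. Of 10 marker genes of the HEK293 line, 6 were detected on all 12 arrays, PAX2 on none. The leukocyte markers PTPRC and CD3E were detected on no array, CD14 and the fibroblast collagen COL1A1 on all 12. NR3C1, the receptor's own gene, was detected on 10 arrays by the probe used here (log2 intensity 5.42 to 6.28), and nothing states whether that probe reads the introduced receptor.

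**Figure D1:**
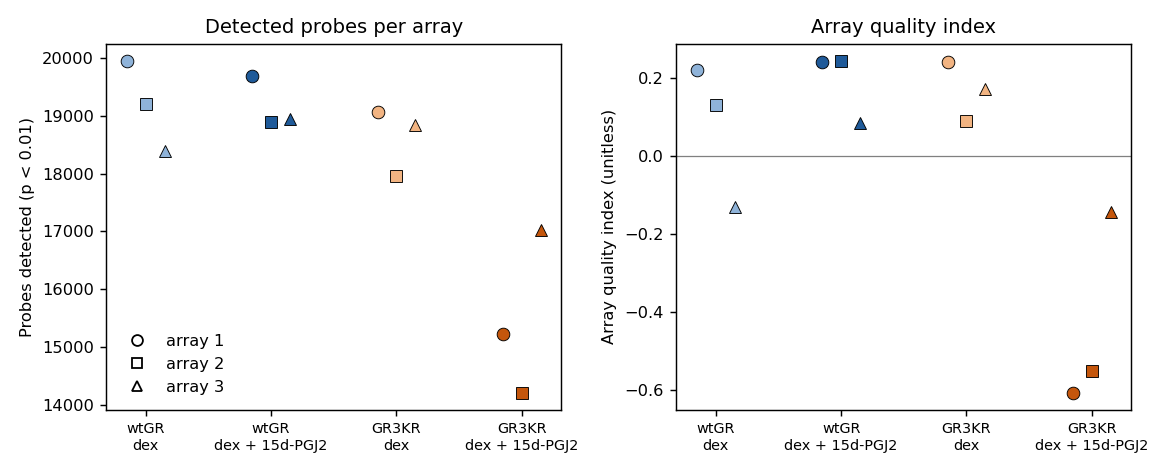
Probes detected per array at a detection p-value under 0.01 (left) and the unitless array quality index (right) for the 4 groups, with 1 point per array and a marker shape for each replicate number. Arrays 1 and 2 of the treated GR3KR group lie lowest on both axes, at 15223 and 14207 probes, and array 3 of that group lies between them and the other 9 arrays in detected probes.

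Over the 12 arrays the responses differed widely between the lines by limma's moderated test. The difference of effects was called in 3044 of 12337 genes, or 24.7%, at a Benjamini-Hochberg adjusted p under 0.05. It was above 0 in 2172 of them (17.6% of the genes tested) and below 0 in 872 (7.07%). The median difference of all genes was itself 0.33 on the log2 scale. With cyclic loess in place of quantile normalization 1494 genes were called, 51.9% of them above 0 instead of 71.4%, and the median of all genes was 0.08, so the balance of directions depends on the scaling. Most called genes, 2785 of 3044, had estimated effects of opposite sign in the lines, as did 7505 of all 12337 genes. Selection for a large difference by itself favours opposite signs, so these counts are a description. Of the 2172 called higher genes, 2009 had an effect below 0 in wtGR cells and above 0 in GR3KR cells, and of the 872 called lower ones 776 had the reverse. Within wtGR cells the effect was called in 27 genes (0.219%) and within GR3KR cells in 5608 (45.5%), and of the 3044 genes 18 and 2761 were among them.

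Treated GR3KR array 3 gave smaller differences than its group. Without arrays 1 and 2, 24 genes were called, or 0.195% of those tested, 3 higher (0.0243%) and 21 lower (0.17%). All 24 were among the 3044, in the same direction, and 2834 genes had an unadjusted p under 0.05. Every one of the 3044 genes kept its sign, as did 83.4% of all genes. The shared arrays favour this, since array 3 and the 9 other arrays enter both estimates. The median ratio of the estimate on array 3 alone to that on 12 arrays was 0.689, against 0.597 over all genes. At least 0.5 of the difference was kept by 2665 of the called genes (87.5%) and by 59.3% of all genes. In the called lower genes 292 of 872 were below detection on all 3 treated GR3KR arrays, in the called higher genes 8 of 2172, and in all genes 1108 of 12337. The count moved by over 1.5 times when most single arrays were left out: to 1475 and 723 without wtGR control array 2 or 3, 209 and 127 without treated wtGR array 1 or 2, 330, 1951 and 321 without GR3KR control array 1, 2 or 3, and 1277, 380 and 6502 without treated GR3KR array 1, 2 or 3.

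**Figure D2:**
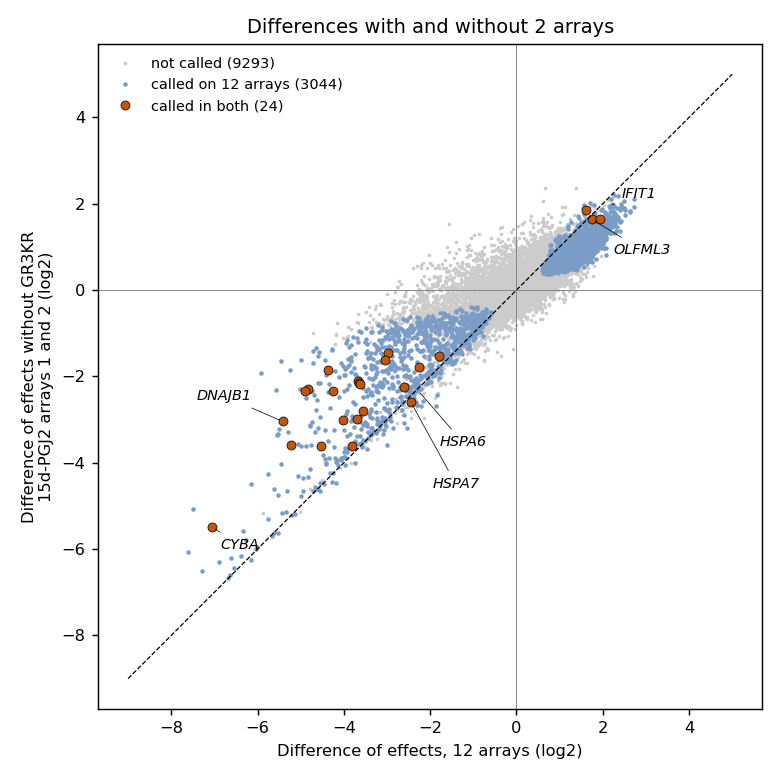
Difference of 15d-PGJ2 effects (GR3KR minus wtGR, log2) of each gene over 12 arrays (horizontal axis) and without treated GR3KR arrays 1 and 2 (vertical axis), with the dashed line marking equal values. The 3044 called genes mostly lie nearer 0 on the vertical axis, and the 24 genes called in both settings include CYBA, DNAJB1, HSPA7 and OLFML3, with HSPA6 and IFIT1 marked for comparison.

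Other probes of the same gene often had a difference of the other sign. Of the called genes, 742 had at least 1 other probe that passed the detection filter, and in 380 (51.2%) every other probe had a difference of the same sign. Over all 3228 tested genes with another such probe the share was 46.8%. It was 42.4% for called higher genes and 66.3% for called lower genes. Another probe was itself called the same way in 171 of the 742 and the opposite way in 81. EIF4G1, the scaffold of the cap-binding translation complex, was among those where the signs were alike, with -2.61 by the probe in use and -3.12 by the other. KPNA2, a nuclear import receptor, had -6.61 by a probe below detection on all 3 treated GR3KR arrays and 1.50 by a probe detected on all 12 arrays. HK2, a hexokinase, had -3.49 and 0.92, and PCNA, the sliding clamp of DNA polymerases, 1.04 and -2.92.

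**Figure D3:**
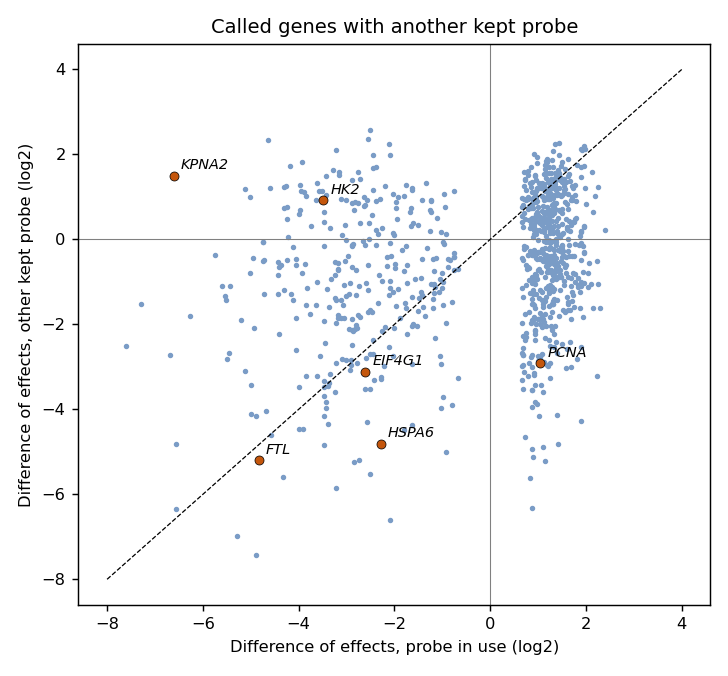
Difference of effects (log2) by the probe in use (horizontal axis) and by each other kept probe (vertical axis) for the 742 called genes that have one, with 894 such probes in all and the dashed line marking equal values. Many points lie on the other side of 0 from the probe in use, KPNA2, HK2 and PCNA among them, while EIF4G1, FTL and HSPA6 lie on the same side.

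Genes of the heat shock response stood out by name: HSPA6, HSPA7, HSPA1B and DNAJB1 responded less in GR3KR cells. The first 3 of these were among 15 of the 97 named genes that limma called in each of the 12 fits that left out 1 array. The named genes were mostly chosen for being called, as 95 of them were over 12 arrays. Of all 12337 genes, the fit with the fewest calls had 127. With treated GR3KR arrays 1 and 2 left out and the quality index as a covariate, the differences of the 4 heat shock genes were -2.66, -2.86, -2.20 and -2.74. With the index over all 12 arrays they were -2.72, -3.00, -2.30 and -1.67, and limma called none (adjusted p from 0.614 to 0.900). Heat shock genes are read by HSF1, whose target is an array of inverted repeats of the bases GAA. The stretch of 250 bases before the start site is shown for HSPA6, HSPA1B and DNAJB1, on which the result turns, and for HSPA1A as the near copy of HSPA1B, from RefSeq on build GRCh38.p14. Capitals mark each match to GAANNTTC or TTCNNGAA, which read the same on both strands and may overlap.
HSPA6, chr1:161524290-161524539, plus strand: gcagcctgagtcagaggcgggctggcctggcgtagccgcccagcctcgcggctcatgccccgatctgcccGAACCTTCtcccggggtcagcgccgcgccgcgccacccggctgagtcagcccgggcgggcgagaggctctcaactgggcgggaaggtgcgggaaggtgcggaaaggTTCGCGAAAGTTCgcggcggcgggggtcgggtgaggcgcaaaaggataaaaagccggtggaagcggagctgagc
HSPA1A, chr6:31815293-31815542, plus strand: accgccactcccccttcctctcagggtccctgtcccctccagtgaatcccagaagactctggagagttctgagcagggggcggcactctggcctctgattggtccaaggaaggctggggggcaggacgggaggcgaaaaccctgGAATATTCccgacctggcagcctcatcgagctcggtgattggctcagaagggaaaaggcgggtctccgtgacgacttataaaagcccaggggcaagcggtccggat
HSPA1B, chr6:31827488-31827737, plus strand: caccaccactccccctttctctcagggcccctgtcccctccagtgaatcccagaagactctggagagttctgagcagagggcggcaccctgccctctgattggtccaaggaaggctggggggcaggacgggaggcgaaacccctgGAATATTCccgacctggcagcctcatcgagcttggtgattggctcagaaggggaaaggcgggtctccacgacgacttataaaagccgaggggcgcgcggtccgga
DNAJB1, the second of its 3 listed start sites, chr19:14518398-14518647, minus strand: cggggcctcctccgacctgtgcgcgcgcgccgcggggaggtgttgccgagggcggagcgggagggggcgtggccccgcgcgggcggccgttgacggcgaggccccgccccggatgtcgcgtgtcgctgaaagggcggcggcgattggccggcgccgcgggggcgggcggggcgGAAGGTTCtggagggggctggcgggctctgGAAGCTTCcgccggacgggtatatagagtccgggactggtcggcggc
Such a match stood in 1205 of the 9915 tested genes with a listed promoter (12.2%) and in 18 of 27 genes of the HSF1 list (66.7%). The longer GAANNTTCNNGAA or TTCNNGAANNTTC, searched likewise, stood in 0.494% of the tested genes and in 8 of these 27 (29.6%), HSPA6 among them. The other 2 listed start sites of DNAJB1 hold 0 matches, as do both windows of STIP1 and of CACYBP. A match is a string of letters and no measured site. The window of HSPA1L on the minus strand overlaps that of HSPA1A by 241 bases, and both hold the same match.

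HSPA6, an HSP70 chaperone made almost only under stress, read 7.34, 7.43 and 7.76 (log2 intensity) on the wtGR control arrays and 13.14, 13.52 and 13.09 on the treated ones. In GR3KR cells it read 5.91, 6.54 and 5.92 on control arrays and 9.87, 9.31 and 9.54 on treated ones. Treated arrays lay above control arrays in both lines, and all 3 treated GR3KR arrays lay below all 3 treated wtGR arrays. The rise was 5.74 in wtGR and 3.45 in GR3KR cells, a difference of -2.29 (SE 0.32, limma adjusted p = 0.00864) or 4.89-fold. Array 3 alone gave a rise of 3.42, close to the other 2 arrays, and a difference of -2.32 with an adjusted p of 0.0561. The other HSPA6 probe was detected on 3 arrays, none of them treated GR3KR, and had a difference of -4.81.

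HSPA7, a near copy of HSPA6 whose probe can share its signal, followed the same order. Its control arrays read 5.54, 5.89 and 6.29 in wtGR and 5.59, 5.41 and 5.85 in GR3KR cells, so that the lines overlapped before treatment. Treated arrays read 10.27, 10.65 and 10.23 in wtGR and 8.01, 7.43 and 7.50 in GR3KR cells, with no overlap. The difference of effects was -2.45 (SE 0.33, limma adjusted p = 0.00819), and -2.59 (adjusted p = 0.0431) without arrays 1 and 2. Of the HSP70 genes it alone was called in both settings.

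The HSPA1 genes, which encode the main inducible HSP70, divided by probe and line. HSPA1B read 11.05, 10.11 and 9.78 on wtGR control arrays and 14.39, 14.42 and 13.61 on treated ones, a rise of 3.83. In GR3KR cells its control arrays read 11.30, 9.89 and 10.71 and its treated arrays 9.81, 9.44 and 10.64, and these overlapped. Treated GR3KR array 3 stood at the level of its controls (log2 difference 0.01). The difference of effects was -4.49 (SE 0.63, limma adjusted p = 0.00864), and -3.82 (adjusted p = 0.0727) without arrays 1 and 2.

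HSPA1A, nearly identical to HSPA1B in its coding sequence, was below detection on all 3 wtGR control arrays and read 9.89, 10.15 and 10.10 on the GR3KR ones. Treated arrays read 7.61, 7.88 and 7.91 in wtGR and 12.72, 12.71 and 12.26 in GR3KR cells, so the level was far higher in GR3KR cells with and without 15d-PGJ2. Its difference of -0.77 (SE 0.24, limma adjusted p = 0.0401) became 0.02 once the undetected arrays were raised to the lowest detected level, and it was 0.91 in the series' own value table (adjusted p = 0.0122), so no direction was measured. HSPA1L, its divergent neighbour, had an estimate of the other sign from HSPA6 and HSPA1B, but its wtGR effect was mostly not measured. It was below detection on the wtGR control arrays and on 2 of the 3 treated ones, and rose in GR3KR cells from 6.24, 6.07 and 5.86 to 8.71, 8.52 and 7.91. The difference was 1.71 (SE 0.32, limma adjusted p = 0.0154), and 1.24 without arrays 1 and 2. With undetected values raised it was 2.28, which is no bound. Limma did not call it with median scaling (1.02, adjusted p = 0.0686) or with cyclic loess (1.21, adjusted p = 0.0519).

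DNAJB1, the co-chaperone that hands substrates to HSP70, showed how arrays 1 and 2 enter a result. It read 10.09, 10.33 and 9.63 on wtGR control arrays and 13.89, 13.95 and 13.74 on treated ones. GR3KR control arrays read 9.61, 9.85 and 9.72, and treated ones 6.55, 7.38 and 10.52. Treated arrays 1 and 2 lay below the controls and array 3 above them. Over 12 arrays the difference was -5.42 (SE 1.06, limma adjusted p = 0.0165). On array 3 alone the GR3KR effect was 0.80 against 3.84 in wtGR cells (adjusted p = 0.0815 over 12 arrays), a difference of -3.04 (adjusted p = 0.0249).

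Over the list of HSF1-driven cytosolic chaperones, 2 of 30 measured genes were called higher (6.67%) and 11 lower (36.7%), where 17.6% and 7.07% of all genes were. Their median difference was -0.33 against 0.33 over all genes, from a median effect of 0.93 in wtGR and 0.41 in GR3KR cells. Without arrays 1 and 2 it was -0.51 against 0.23, and 23 of the 30 genes lay below 0 (4324 of all 12337 genes), with DNAJB1 and HSPA7 called. The list's median stayed below 0 under each of the 3 scalings, at -0.26 with median scaling and -0.58 with cyclic loess, and with the index as a covariate. Among genes called for their rise in wtGR cells, a set named outside the rule for genes, HSPH1, an HSP110 nucleotide exchange factor, had -1.79 (adjusted p = 0.0157), BAG3, a co-chaperone of selective autophagy, -1.38 (adjusted p = 0.0222) and DEDD2 -1.08 (adjusted p = 0.03). CRYAB, a small heat shock protein, had -0.03 (SE 0.44, adjusted p = 0.965) and ZFAND2A, a proteasome partner, 0.37 (SE 0.28, adjusted p = 0.323), both nearer 0 than the genes above and not called.

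The HSP90 machinery that folds the receptor had 0 genes called higher and 1 lower of 12, STIP1 (-2.31, SE 0.46, limma adjusted p = 0.0169), the adaptor that links HSP70 to HSP90. The shares, 0% and 8.33%, stand against 17.6% and 7.07% of all genes. An unadjusted p under 0.05 was found in 6 of the 12 and in 5483 of all 12337 genes, and the list's median was -0.47. STIP1 had an effect of 1.13 in wtGR cells (adjusted p = 0.279) and read 9.77, 10.04 and 11.31 on treated GR3KR arrays against 11.44, 11.51 and 11.70 on controls in GR3KR cells, with arrays 1 and 2 lowest. Its difference was -1.37 (adjusted p = 0.0727) without them. CACYBP, a calcyclin-binding partner of ubiquitin ligases, had -7.28, with 1 treated GR3KR array above detection, and -1.51 by its other probe. In the chaperonin ring 1 of 10 was called higher (10%), CCT6A (0.69, and -2.97 by a probe below detection on the treated GR3KR arrays).

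**Figure D4:**
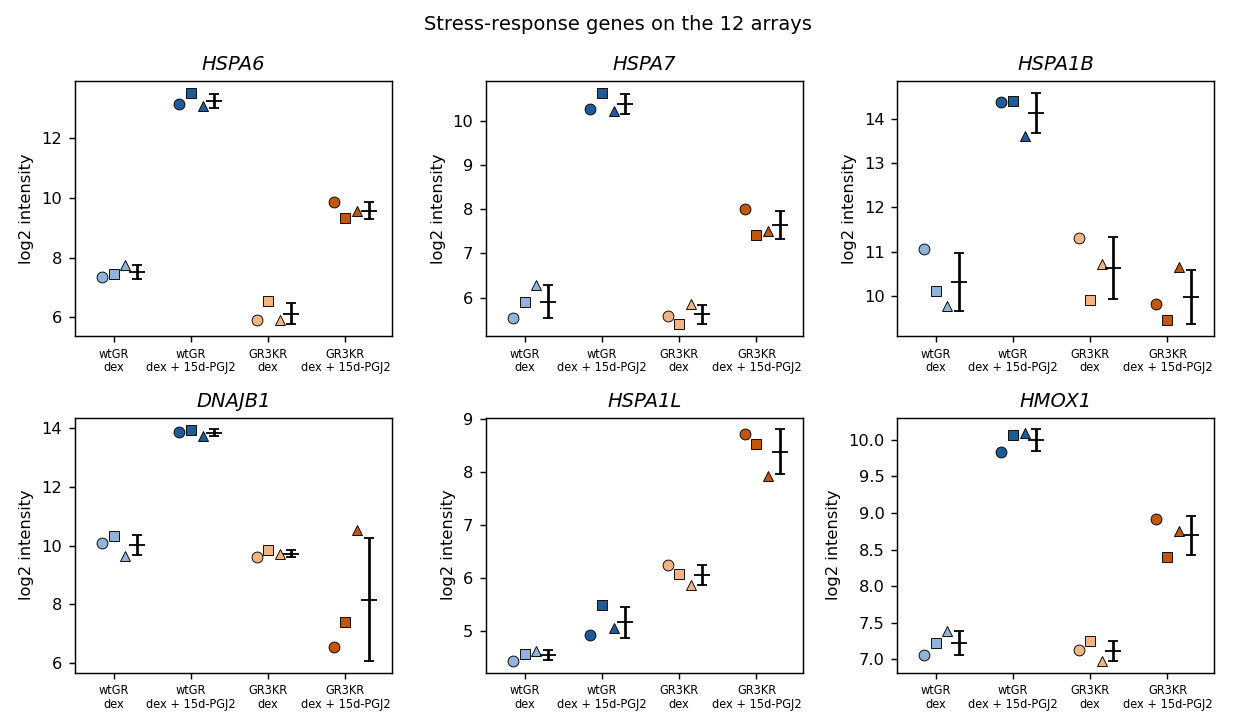
Log2 intensity of HSPA6, HSPA7, HSPA1B, DNAJB1, HSPA1L and HMOX1 on the 12 arrays, with 1 point per array (circle, square and triangle for arrays 1, 2 and 3) and the mean ± SD of 3 arrays beside each group. Treated wtGR arrays lie highest in each panel but that of HSPA1L, and in the DNAJB1 panel treated GR3KR array 3 (10.52) lies apart from arrays 1 and 2 (6.55 and 7.38).

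HMOX1, which breaks down haem and answers to NRF2 among others, rose in both lines and less in GR3KR cells. It read 7.05, 7.22 and 7.39 on wtGR control arrays and 9.83, 10.07 and 10.10 on treated ones, and 7.12, 7.24 and 6.98 and 8.92, 8.40 and 8.75 in GR3KR cells. Controls of the lines overlapped and treated arrays did not. The difference was -1.20 (SE 0.25, limma adjusted p = 0.0181), 2.29-fold, and -1.14 (adjusted p = 0.0842) without arrays 1 and 2. Of the 20 measured NRF2 targets, HMOX1 included, 2 were called higher (10%) and 4 lower (20%), against 17.6% and 7.07% of all genes. Their median was -0.14 over 12 arrays, below the 0.33 of all genes, and 0.30 without arrays 1 and 2, above the 0.23 of all genes.

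FTL, the ferritin light chain, was among the called lower NRF2 targets (-4.83, SE 1.11, limma adjusted p = 0.0216). Its treated GR3KR arrays read 7.76, 7.77 and 11.57 against 13.32, 13.19 and 13.43 on controls, so that array 3 lay nearer the controls than arrays 1 and 2, and the difference was -2.29 (adjusted p = 0.036) without them. The other FTL probe gave -5.19 and -2.18 in these settings. MAFG, the small MAF partner of NRF2, had -3.44 (limma adjusted p = 0.025), with 1 treated GR3KR array above detection. With undetected values raised MAFG had at most -2.65, and without arrays 1 and 2 it had -1.57. BLVRB, a biliverdin reductase, had 1.26 (adjusted p = 0.0255), and 0.89 without those arrays. Neither gene was called in that setting.

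The genes that answered in wtGR cells mostly answered less in GR3KR cells. Of the 18 genes called higher there by limma, 16 were also above 0 in GR3KR cells and 13 were called higher there. Their difference was below 0 in 17 of 18, the exception being ZFAND2A, and was called below 0 in 10. Of the 9 genes called lower in wtGR cells, all 9 had a difference above 0 and 8 were called, among them IFIT1 (2.14) and, named outside the rule, EPHB1 (1.81) and SFRP2 (1.57). These genes were selected for a large effect on the wtGR arrays that also enter the difference, which by itself favours a difference of the opposite sign, so the counts are a description. Without arrays 1 and 2 the signs were the same in number, 17 of 18 and 9 of 9, with HSPA7 alone called.

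The classic targets of the glucocorticoid receptor, on which the question of the series bears most directly, had 5 of 30 genes called higher (16.7%) and 2 lower (6.67%), near the 17.6% and 7.07% of all genes. Their median difference was 0.21 over 12 arrays and 0.26 without arrays 1 and 2, against 0.33 and 0.23 over all genes, and -0.02 against 0.08 with cyclic loess. No member was called without those arrays, where limma called 24 genes in all. DUSP1, a phosphatase that switches off MAP kinases, read 11.56, 11.51 and 11.64 on wtGR control arrays and 12.73, 13.01 and 12.60 on treated ones, which did not overlap. On GR3KR arrays it read 10.71, 10.97 and 10.80 and 10.45, 11.05 and 10.90, which did. The difference was -1.23 (SE 0.26, limma adjusted p = 0.0187), and -1.13 (adjusted p = 0.0842) without arrays 1 and 2.

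NFKBIA, the inhibitor that holds NF-kB in the cytosol, had -0.99 (adjusted p = 0.0281) and was lower on treated than on control arrays in GR3KR cells. Above 0 were TGFBR3, a TGF-beta coreceptor (0.95, adjusted p = 0.0223), and ARRDC2, an arrestin-domain protein (1.35, adjusted p = 0.028; 0.85 by its other probe). TGFBR3 read 9.48, 9.31 and 9.49 and 8.90, 8.83 and 8.89 on wtGR control and treated arrays, and 9.42, 9.54 and 9.45 and 9.96, 10.07 and 9.56 on those of GR3KR cells. On treated GR3KR array 3 it lay 0.09 above the controls, less than on arrays 1 and 2. The NF-kB list had 0 of 17 genes called higher and 1 lower (5.88%), NFKBIA, against 17.6% and 7.07% of all genes, and a median of 0.01.

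Immediate early genes, which answer to stress and growth signals within minutes to hours, leaned below 0. Of 27, 1 was called higher (3.7%) and 7 lower (25.9%), against 17.6% and 7.07% of all genes, and the median was -0.42, or -0.64 without arrays 1 and 2. Their median effect was 0.59 in wtGR and -0.01 in GR3KR cells. The median was -0.20 with median scaling and -0.56 with cyclic loess, and 0.17 among members detected on all 12 arrays. ZFP36, an mRNA decay factor, had -1.80 (SE 0.36, limma adjusted p = 0.0168) and -1.61 (adjusted p = 0.118) without arrays 1 and 2. Its treated arrays read 11.88, 11.88 and 11.10 in wtGR and 9.78, 9.85 and 10.09 in GR3KR cells. FOS, an AP-1 subunit, had -1.82, but its treated GR3KR arrays were below detection, and with them raised to the lowest detected level the difference was at most -0.34. ATF3, a stress-induced repressor, had -3.40 (adjusted p = 0.0267), with 6.29, 6.69 and 9.26 on treated GR3KR arrays, and -1.55 (adjusted p = 0.13) on array 3 alone.

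The ATF4 integrated stress response had 4 of 31 genes called higher (12.9%) and 3 lower (9.68%), against 17.6% and 7.07% of all genes, and a median of -0.05 (-0.01 without arrays 1 and 2), from nearly equal median effects of 0.41 in wtGR and 0.49 in GR3KR cells. MTHFD2, an enzyme of mitochondrial one-carbon metabolism, had 1.25 (SE 0.23, limma adjusted p = 0.0154), SLC1A5, a glutamine carrier, 1.35 (adjusted p = 0.0169), SLC38A2, a neutral amino acid carrier, 1.36 (adjusted p = 0.0244) and CEBPG, a partner of ATF4, -0.76 (adjusted p = 0.0218). MTHFD2 read 10.93, 10.999 and 11.23 on treated wtGR and 11.43, 11.55 and 11.04 on treated GR3KR arrays, from controls of 11.32 ± 0.06 and 10.36 ± 0.09 (SD, n = 3). Limma called 0 of the 18 cytosolic aminoacyl-tRNA synthetases, of which 3 had an unadjusted p under 0.05, KARS1 (-1.26, adjusted p = 0.0962) and NARS1 (0.45, adjusted p = 0.0971) having the smallest p.

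ER chaperones and unfolded protein response genes had 3 called higher and 4 lower of 18 (16.7% and 22.2%), against 17.6% and 7.07% of all genes. HYOU1, an ER chaperone of the HSP110 family, had -2.60 (adjusted p = 0.028; -2.79 by its other probe), EDEM1, a lectin of ER-associated degradation, -3.22 (adjusted p = 0.0314) and XBP1, a transcription factor of the pathway, -1.49 (adjusted p = 0.0296), while DNAJB9, a co-chaperone that restrains IRE1, had 1.10 (adjusted p = 0.028). HYOU1 and EDEM1 were above detection on 1 treated GR3KR array. Without arrays 1 and 2 these 4 differences were -1.14, -1.33, -1.02 and 0.59, none called, and the list's median turned from -0.07 to 0.29.

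Of 21 interferon-stimulated genes, 4 were called higher (19%, near the 17.6% of all genes) and 0 lower (7.07% of all genes). Above 0 lay 18, with a median of 0.66 against 0.33 over all genes, and 0.56 against 0.23 without arrays 1 and 2. With median scaling the median was 0.21 against 0.27 over all genes, and with cyclic loess 0.28 against 0.08, so its place relative to all genes depends on the scaling. With the quality index as a covariate it was -0.06, and -0.14 when those arrays were also left out. IFIT1, which binds foreign RNA, read 6.73, 6.91 and 7.08 on wtGR control arrays and 5.40, 5.14 and 5.66 on treated ones, all lower. In GR3KR cells it read 7.38, 7.26 and 6.92 on control arrays and 7.95, 7.89 and 7.62 on treated ones, all higher. The difference was 2.14 (SE 0.27, limma adjusted p = 0.00714), and 1.94 (adjusted p = 0.0561) without arrays 1 and 2. IFI6, IFI27 and IFI35 were called at 1.40, 1.45 and 1.26, each with an effect near 0 in wtGR cells, and the other IFI6 probe had -0.89.

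Metallothioneins, zinc-binding proteins induced by metals and by glucocorticoids, had 3 of 6 measured genes called higher (50%) and 0 lower, against 17.6% and 7.07% of all genes, with a median of 0.91 against 0.33 over all genes (0.66 without arrays 1 and 2, with 0 called by limma, and -0.06 with the index added there). With median scaling and with cyclic loess 1 of the 6 was called, MT1F. The 3 members detected on all 12 arrays had a median of 0.09 against 0.45 over all genes so detected. MT1H had 1.90 (SE 0.46, limma adjusted p = 0.0243), MT1E 1.64 (adjusted p = 0.034) and MT1F 1.26 (adjusted p = 0.0224). MT1F read 9.44, 9.65 and 9.88 on wtGR control arrays and 8.97, 8.72 and 9.07 on treated ones, and 9.41, 9.70 and 9.75 and 10.36, 10.33 and 9.73 on those of GR3KR cells. On treated GR3KR array 3 it stood within its controls. The family is near-identical in sequence, so the probes can share signal.

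The SUMO machinery had 2 higher and 1 lower of 15 (13.3% and 6.67%), and the receptor coregulators 2 higher and 3 lower of 18 (11.1% and 16.7%), against 17.6% and 7.07% of all genes. SENP5, a SUMO protease, read 8.48, 8.59 and 8.56 on GR3KR control arrays and 9.64, 10.12 and 9.82 on treated ones, and its wtGR arrays overlapped. Its difference was 1.52 (SE 0.37, limma adjusted p = 0.0243), 1.48 (adjusted p = 0.133) on array 3 alone and 0.16 by its other probe. SENP3, another SUMO protease, had 1.27 (adjusted p = 0.029), and 0.64 (adjusted p = 0.199) with median scaling. SUMO2, a modifier itself, had -3.42 by one probe and 1.05 by the other. Among coregulators, PRMT1, an arginine methyltransferase, had -6.89 with 1 treated GR3KR array above detection. EP300, an acetyltransferase, was also above detection on 1 treated GR3KR array. Its difference was -2.94 (limma adjusted p = 0.031), and at most -1.92 with undetected values raised. TBL1XR1, a corepressor subunit below detection on all treated GR3KR arrays, had -3.23 (at most -1.26 with undetected values raised). MED1, a Mediator subunit, had 0.92 (limma adjusted p = 0.0314).

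The genes called with and without arrays 1 and 2 were led by falls in GR3KR cells. Of the 24, 4 had another kept probe, which had the same sign in 3. CYBA, a subunit of NADPH oxidase, had the largest of these differences. It read 12.50, 11.90 and 12.45 on GR3KR control arrays and 5.75, 4.82 and 7.62 on treated ones, 1 of them detected, and its wtGR arrays, 11.80, 11.12 and 10.18 and 12.06, 12.17 and 11.36, overlapped. The difference was -7.05 (SE 0.87, limma adjusted p = 0.00688), -6.38 with undetected values raised, and -5.49 (adjusted p = 0.036) without arrays 1 and 2. EIF4G1 read 9.14, 8.79 and 9.51 on treated GR3KR arrays against 11.24, 11.40 and 11.39 on controls, with all 12 arrays detected. Its difference was -2.61 (SE 0.28, adjusted p = 0.00688) and -2.25 (adjusted p = 0.0249) on array 3 alone, and by its other probe -3.12 and -3.20.

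Of the 21 genes called lower in both settings 14 are named. Besides CYBA, EIF4G1, HSPA7, DNAJB1 and FTL they were PIP4P1, a lysosomal lipid phosphatase (-5.23 over 12 arrays and -3.58 without arrays 1 and 2), SCAND1 (-4.89 and -2.35), R3HDM4 (-4.53 and -3.62), SLC25A1, the mitochondrial citrate carrier (-4.37 and -1.84), CNOT3, a subunit of the CCR4-NOT deadenylase (-4.01 and -3.00), PABPN1, the nuclear poly(A)-binding protein (-3.67 and -2.10) and CLEC11A, a secreted growth factor (-3.64 and -2.14). The last 2, ACOT8, a peroxisomal thioesterase, and DLG4, a synaptic scaffold, were below detection on all treated GR3KR arrays. Their differences were -3.80 and -3.70, and at most -2.16 and -2.52 with undetected values raised. PIP4P1, SCAND1, R3HDM4 and CNOT3 were detected on 1 treated GR3KR array, and had at most -4.01, -4.25, -3.75 and -2.75 with undetected values raised. SLC25A1, PABPN1 and CLEC11A were detected on 2, and had at most -4.35, -3.42 and -3.28. CLEC11A read 7.14, 5.35 and 8.49 on treated GR3KR arrays against 10.17 ± 0.07 (SD, n = 3) on controls, so that even the array nearest to the controls lay below them.

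Above 0 in both settings were PHF8, OLFML3 and FRG1HP, a pseudogene. OLFML3, a secreted olfactomedin-domain protein, read 5.68, 5.80 and 5.51 on GR3KR control arrays and 7.09, 6.95 and 6.86 on treated ones, while in wtGR cells it was detected on 2 control arrays and no treated one. Its difference was 1.75 (SE 0.21, limma adjusted p = 0.00688), 1.33 with undetected values raised, and 1.64 (adjusted p = 0.0431) without arrays 1 and 2. PHF8, a histone demethylase, was detected on the 3 treated GR3KR arrays only (6.24, 6.78 and 6.08), so that the wtGR effect was not measured. Its difference was 1.94, or 0.97 with undetected values raised, and neither value is a bound. FRG1HP had 1.62 and 1.84 in these settings.

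The largest differences over 12 arrays came with a wide spread. Those below 0 were of PGAM1 (-7.61), EEF1G (-7.51), CACYBP (-7.28), CYBA (-7.05), PRMT1 (-6.89), PKMYT1 (-6.68), the pseudogene PI4KAP1 (-6.63) and KPNA2 (-6.61). Of these 8, EEF1G, a translation elongation factor, was detected on all 3 treated GR3KR arrays and the others on 1 or none, and CYBA alone was called without arrays 1 and 2, where the 8 differences ran from -6.67 to -5.08. In all 8, wtGR control array 3 was also the lowest of its group: EEF1G read 14.12, 13.97 and 9.44 on wtGR control arrays and 7.01, 6.72 and 10.51 on treated GR3KR arrays, against 14.26, 13.89 and 14.19 on GR3KR controls. The array quality index is lowest on the same 4 arrays. The probes it was computed from include those of PGAM1, CACYBP, PKMYT1 and KPNA2, so it is not fully separate from these values. Other probes gave -2.51 for PGAM1, a glycolytic mutase, and -2.72 for PKMYT1, an inhibitory kinase of CDK1. Above 0 were AS3MT, an arsenic methyltransferase (2.72), SEMA3B (2.72), PLEKHO2 (2.63), B4GALT1, a galactosyltransferase (2.62), MIR98 (2.52), TMEM68 (2.52), the kinase WNK4 (2.50) and MAFA-AS1 (2.49). On array 3 alone these 8 had differences from 1.74 to 2.10, none called (adjusted p from 0.0834 to 0.193). AS3MT read 8.76, 9.001 and 7.95 on treated GR3KR arrays, all above the 6.47, 7.17 and 6.80 of their controls. AS3MT, B4GALT1 and WNK4 were detected on all 12 arrays. MIR98 and MAFA-AS1 were detected on no GR3KR control array, TMEM68 on 1, and SEMA3B and PLEKHO2 on 2. On treated wtGR arrays TMEM68 was detected on none, and MIR98, MAFA-AS1, SEMA3B and PLEKHO2 on 1. With undetected values raised MIR98 had 1.95, MAFA-AS1 1.84, TMEM68 2.10, SEMA3B 2.35 and PLEKHO2 2.11, which are no bounds. MIR98 here is the signal of a gene probe, not of the mature miRNA.

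Of the remaining lists, the shares called higher and lower are given in brackets and stand against 17.6% and 7.07% of all genes. Without arrays 1 and 2 limma called FTL and EIF4G1 alone among the members of all 24 lists besides DNAJB1 and HSPA7. Sterol synthesis had 4 higher and 2 lower of 18 (22.2% and 11.1%), with CYP51A1, a lanosterol demethylase, at 1.85 and FDPS, a farnesyl diphosphate synthase, at 1.32. EBP, a sterol isomerase detected on 1 treated GR3KR array, had -5.26, and -1.86 without arrays 1 and 2. MSMO1, a sterol oxidase, had 1.25 against -0.17 and -1.83 by its other probes. The glycolytic enzymes had 2 higher and 3 lower of 17 (11.8% and 17.6%), with PGK1 at -2.88 against -0.15 by its other probe and PFKM at 0.89. PPAR genes had 1 higher and 0 lower of 14 (7.14% and 0%), the receptor partner RXRA (1.34).

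Against the same 17.6% and 7.07%, translation factors had 5 higher and 6 lower of 34 (14.7% and 17.6%), with EIF3G at -2.23 and EIF2S1 at 1.23. The proteasome had 4 higher and 2 lower of 27 (14.8% and 7.41%), with PSMB4 at 1.14, PSMB3 at 0.94, PSMA2 at 1.21 and PSMD1 at -0.99, and a median of 0.33, that of all genes. DNA replication genes had 3 higher and 0 lower of 24 (12.5% and 0%), with E2F1 at 1.75 and RFC4 at 0.73 against -2.36 by its other probe. Mitotic genes had 3 higher and 3 lower of 27 (11.1% and 11.1%), with TPX2 at -2.32 and BUB1 at 0.69. The p53 targets had 3 higher and 1 lower of 16 (18.8% and 6.25%), with SESN1 at 1.04, BAX at -1.77 and RRM2B at 2.30 against -1.61 by its other probe. FAS, also called higher but detected on 5 of the 12 arrays, had 0.98. Limma did not call FAS with median scaling (adjusted p = 0.201) or with cyclic loess (adjusted p = 0.117). Of the 7 canonical histones (14.3% higher and 14.3% lower), H1-2 was called at 1.30 and H2AC6 at -1.89, the latter below detection on all treated GR3KR arrays and at 0.11 with undetected values raised. Ubiquitin and autophagy adaptors had 1 of 9 called, lower (11.1%), GABARAPL1 (-0.91).

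**Figure D5:**
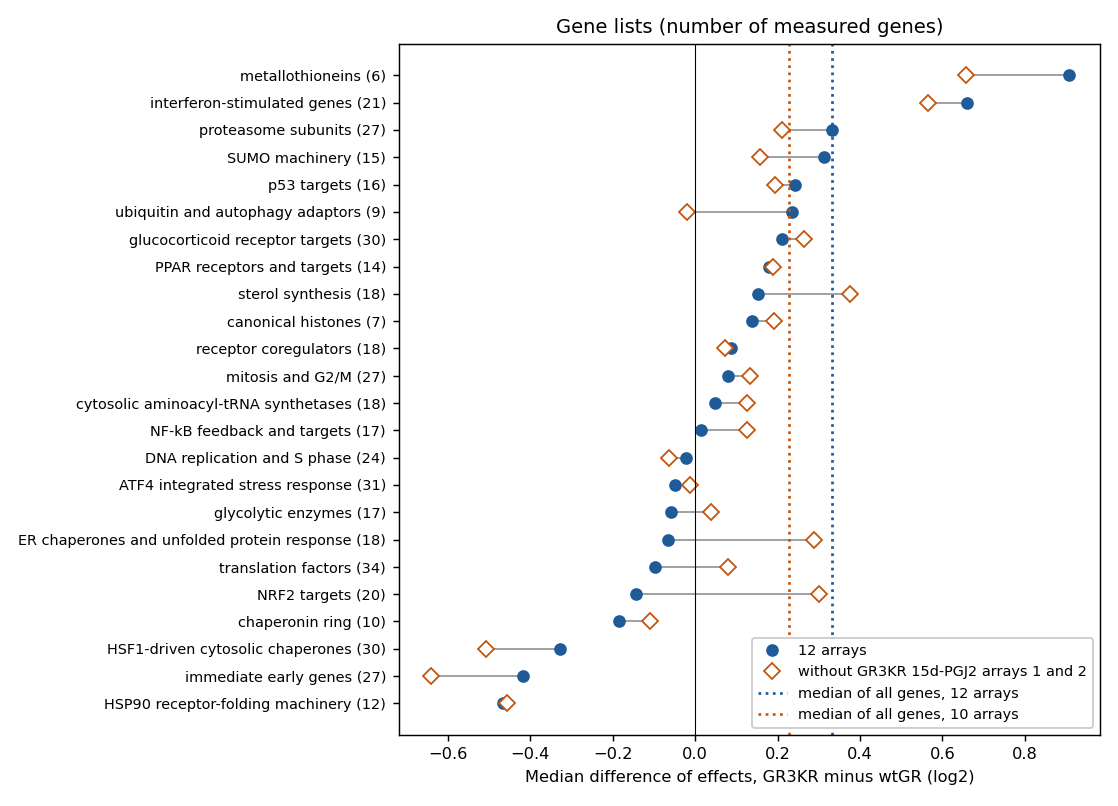
Median difference of effects (GR3KR minus wtGR, log2) of each gene list over 12 arrays (filled points) and without treated GR3KR arrays 1 and 2 (open points), with the number of measured genes beside each name and dotted lines at the medians of all genes (0.33 and 0.23). The HSF1-driven chaperones, immediate early genes and HSP90 machinery lie lowest in both settings, and metallothioneins and interferon-stimulated genes highest, while ER chaperones and NRF2 targets are among those that lie below 0 in 1 setting only.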

How the data were processed

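RNA of 12 cell samples was hybridised to Illumina expression BeadChips, 1 array a sample. The deposited table gives, per the file headers, a non-normalized signal intensity and a detection p-value for each of 47312 probes and 12 arrays. The series' own value table holds log2 values that the authors normalized, and the submitters' processing notes name lumi, with no version; it served as an alternative. Array names were matched to samples through their titles.

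Background was estimated from the detection p-values and removed, followed by an offset of 16, quantile normalization and log2 (neqc, limma 3.58.1, R 4.3.3). A probe was kept where its detection p-value was under 0.01 on at least 3 arrays (20909 probes). GEO's platform annotation gave 1 symbol to 30107 of all probes, several to 8 and none to 17197. RefSeq changed 0 symbols and lacked the gene identifier of 39. The kept probe with the highest mean stood for each of 12337 genes. Limma was fitted with 4 group means (8 residual and 2.97 prior degrees of freedom), and a gene was called where its Benjamini-Hochberg adjusted p, taken over all genes, lay under 0.05. As an alternative, each undetected value was set no lower than the lowest detected one of its array. The result bounds a difference below 0 where undetected arrays lie only in the treated GR3KR and wtGR control groups, and is no bound otherwise. The number of arrays limits the precision, and intensities carry no read depth. The quality index is the first singular vector of the deviations of each gene's probes from their mean. The calculation was tested on simulated data. There the arrays varied independently and with the same spread in every group, unlike the arrays here, so it does not bear on array quality.

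Named were the 8 largest called differences in each direction, up to 12 in each direction that were also called without treated GR3KR arrays 1 and 2 and had the same sign in every other kept probe, up to 4 called members of each of 24 gene lists by smallest p (up to 2 where none was called), and 7 stress genes in any case, HSPA6, HSPA7, HSPA1A, HSPA1B, HSPA1L, DNAJB1 and HMOX1. Members, lists and alternatives were chosen with earlier results of these data known. Alternatives were median scaling, cyclic loess, the value table, the filter, the mean of probes, the quality index, array weights, trended and robust moderation, a replicate block and single arrays left out. Deviations of same-numbered arrays from their group means had correlations from -0.67 to 0.70. Array 1 of both wtGR groups and of the GR3KR controls correlated at 0.62 to 0.70, and array 3 of both wtGR groups at 0.68. With the treated GR3KR arrays the correlations ran from -0.30 to 0.05. Whether a number marks a shared batch was not tested.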

Additional observations from a re-analysis of the deposited data

Results flagged for a closer look

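The 3044 genes that limma called for the difference of effects over the 12 arrays are each a tested difference between the 15d-PGJ2 effect in GR3KR cells and that in wtGR cells. Of the named genes, 17 passed the test both on 12 arrays and without treated GR3KR arrays 1 and 2. The log2 differences over 12 arrays that were below 0 were -7.05 for CYBA, -5.42 for DNAJB1, -5.23 for PIP4P1, -4.89 for SCAND1, -4.83 for FTL, -4.53 for R3HDM4, -4.37 for SLC25A1, -4.01 for CNOT3, -3.80 for ACOT8, -3.70 for DLG4, -3.67 for PABPN1, -3.64 for CLEC11A, -2.61 for EIF4G1 and -2.45 for HSPA7. Those above 0 were 1.62 for FRG1HP, 1.75 for OLFML3 and 1.94 for PHF8. ACOT8 and DLG4 were below detection on all 3 treated GR3KR arrays, and PHF8 on the 9 other arrays. CYBA, PIP4P1, SCAND1, R3HDM4 and CNOT3 were detected on 1 treated GR3KR array, and SLC25A1, PABPN1 and CLEC11A on 2. OLFML3 was detected on no treated wtGR array and FRG1HP on 1. The values of all these genes are limited by the signal over background.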

How the results depend on the processing

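The number of genes called for the difference, 3044 over 12 arrays, was 1340 with median scaling, 1494 with cyclic loess, 24 without treated GR3KR arrays 1 and 2, 64 with those arrays left out and the quality index as a covariate, and 0 by limma once the index entered the fit of all 12 (690 at an unadjusted p under 0.05). Leaving out 1 array at a time gave 127 to 6502. The share above 0 was 71.4%, and 63.7%, 51.9%, 12.5% and 1.56% in the first 4 of these settings, 86.6% over genes detected on all 12 arrays, and 63.6% with the mean of probes. With the replicate block 2225 genes were called, and whether the numbers pair the samples is not settled. The cause of these shifts was not tested. No named difference changed sign under either scaling, array weights, trended moderation, the block or a single array left out. By limma's test 26 named genes lost their call with median scaling and 18 with cyclic loess. E2F1 (adjusted p = 0.151 and 0.111), TBL1XR1 (0.0790 and 0.0992) and ARRDC2 (0.117 and 0.0673) lost it in both. CEBPG (0.311), NFKBIA (0.116), DUSP1 (0.0551) and FRG1HP (0.0952) lost it with median scaling only.

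Signs turned in other settings. Over probes detected on all 12 arrays, KPNA2 had 1.50 and HK2 0.92, which are their other probes. With the index over 12 arrays the values were 0.29 for EBP, 0.0207 for HK2, 0.32 for SUMO2, 0.0890 for ATF3, 0.23 for EDEM1, 0.10 for EP300, 0.58 for KARS1, -0.0599 for IFI35 and -0.12 for IFI27. With the index and without arrays 1 and 2 they were 0.0609 for KARS1, -0.0299 for IFI35 and -0.23 for IFI27. Other probes gave 1.05 for SUMO2, -2.97 for CCT6A, -2.36 for RFC4, -2.92 for PCNA, -0.17 and -1.83 for MSMO1, -0.89 for IFI6 and -1.61 for RRM2B. The mean of probes gave -1.14 for CCT6A, -0.81 for RFC4, -0.94 for PCNA and -0.25 for MSMO1. Undetected values raised to the lowest detected level gave 0.11 for H2AC6 and 0.0247 for HSPA1A, whose difference in the series' own values was 0.91. A BeadChip block was not run, since the file headers used here name none.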
